A study of Mus musculus with 44 samples.

Results

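Netazepide (NTZ) was compared with its vehicle, polyethylene glycol (PEG), in the gastric corpus of wild-type (WT) mice. The comparison holds 20 of the 44 libraries of the series, 9 WT/NTZ and 11 WT/PEG, which were chosen by the genotype and treatment in their labels. The mice were female BalbC animals, homozygous for the intact H+/K+ATPase beta subunit gene, and were bred alongside a knockout (KO) line for that gene. NTZ was injected subcutaneously at 40 mg/kg every 2 weeks for 12 months, from the age of 1 month, and the mice were 13 months old at the end. The NTZ was dissolved in PEG and the WT/PEG mice were given the same volume of PEG, so that both groups received the vehicle. RNA came from a biopsy of the ventral corpus mucosa, and polyadenylated RNA was sequenced with a stranded kit. Libraries are named here by genotype and animal number, as in their labels. A pair of WT/PEG libraries, WT_172_1 and WT_172_2, carries one animal number, and both were counted. Each other WT library carries a number of its own, though the labels do not state that a number stands for one mouse. The p-values measure the spread between libraries. The other 24 libraries of the series, 13 KO/PEG and 11 KO/NTZ, are used where they are named. The KO/PEG libraries are more than the mice the study gives for that group, so that some of them may not be separate mice and p-values that use them may be too small. All these samples are bulk tissue, in which fewer cells of a type and less RNA per cell cannot be told apart.

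Gastrin is a hormone of the G cells of the antrum. In the corpus it binds the gastrin receptor CCKBR on enterochromaffin-like (ECL) cells, which answer by releasing histamine, and histamine drives acid secretion by the neighbouring parietal cells. Gastrin also maintains the mass of ECL cells and of the oxyntic mucosa. NTZ is a competitive antagonist of CCKBR, and the comparison asks what long blockade of the receptor does to the transcripts of a stomach that makes acid normally.

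The labels and the tissue were checked first. Atp4b (chromosome 8 of GRCm38, from 13386205 to 13396825), which encodes the H+/K+ATPase beta subunit and is the gene targeted in the KO line, was between 2141 and 5761 CPM in the 20 WT libraries and between 2.34 and 40.5 CPM in the 24 KO libraries when all libraries were scaled together. CPM is the estimated count as a share of the library's scaled total, times 1000000. The WT libraries held 7881440 to 19277190 estimated counts, and 3 counts, below which no level is read here, were worth 0.156 to 0.381 CPM. This floor covers counting error only. Mitochondrial transcripts took 5.80% to 11.6% of the counts in WT/NTZ and 5.81% to 11.7% in WT/PEG. Gast, the gastrin gene and a marker of antral G cells, was 37.6 CPM in the WT/NTZ library WT_117, 29.9 CPM in WT_118 and 13.4 CPM in the WT/PEG library WT_120, and at most 0.71 CPM in the other WT libraries, so that these 3 corpus libraries carried a transcript of the antrum. In the first principal component of the WT libraries, which held 35.6% of the variance, the WT/NTZ libraries WT_117, WT_118, WT_103, WT_92 and WT_171 lay at -58.2, -47.0, -41.7, -37.4 and -35.4 and the WT/PEG libraries between -18.3 and 34.9.

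No gene passed the test between the groups. Of 13803 genes tested with edgeR's quasi-likelihood test on the 20 WT libraries, 0 (0%) had an adjusted p under 0.05, and the smallest adjusted p was 0.133. At an unadjusted p under 0.05 there were 2116 genes (15.3%), of which 1163 (8.43%) were higher and 953 (6.9%) lower in WT/NTZ. The median log2 fold change over all genes tested was 0.01. No gene separated the groups: none was higher, and none lower, in all 9 WT/NTZ libraries than in all 11 WT/PEG libraries. The count of 0 depended on the tool and on the libraries in the fit. The test with limma-trend gave 0 genes, DESeq2 gave 76 (0.551%), of which 65 (0.471%) were higher and 11 (0.0797%) lower, and edgeR with all 44 libraries in one fit gave 153 (1.03%), 152 of them higher (1.02%) and 1 lower (0.00671%). Without the WT/NTZ library WT_93 edgeR gave 81 (0.582%). Of these 79 (0.568%) were higher. With the 15 WT libraries whose animal number was 100 or above (4 WT/NTZ and 11 WT/PEG) it gave 888 (6.18%), 597 (4.16%) higher and 291 (2.03%) lower. The WT/PEG mice were all numbered above 100 and 5 of the 9 WT/NTZ mice below it. What the numbers stand for is not given in the sources used here. In the plot of all genes, the interferon and squamous genes described below lie to the right and the ECL cell and parietal cell genes mostly left of the centre, at small differences.

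**Figure D1:**
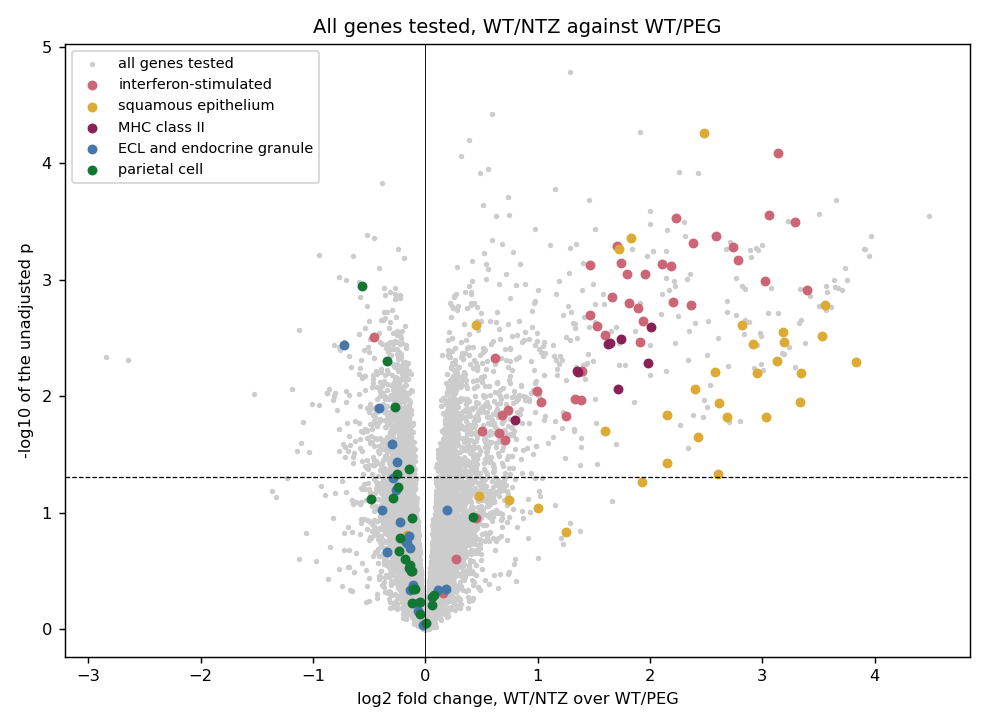
Each point is one of the 13803 genes tested, with the log2 fold change of WT/NTZ over WT/PEG across and -log10 of the unadjusted p from edgeR's quasi-likelihood test upwards. Coloured points are 5 gene lists, the dashed line is an unadjusted p of 0.05, and no gene had an adjusted p under 0.05.

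The receptor and the ECL cell genes had slightly lower levels in WT/NTZ, and none passed the test. Of 25 listed genes of ECL cells and endocrine granules, 21 were tested, and 18 had a log2 fold change below 0 (85.7%, against 48.3% of all genes). Their median was -0.16, and 4 were lower and 0 higher at an unadjusted p under 0.05. Hdc (chromosome 2, from 126593667 to 126619299), histidine decarboxylase, which makes histamine, was 13.4 CPM at the lowest, 21.3 at the median and 51.4 at the highest in WT/PEG, and 8.56, 14.1 and 22.8 CPM in WT/NTZ. The groups overlapped: 8 of 9 WT/NTZ libraries were below the WT/PEG median, 3 were below every WT/PEG library, and the 2 highest values, 51.4 and 35.8 CPM, were those of the WT/PEG libraries WT_129 and WT_149. The log2 fold change of Hdc was -0.72, with a standard error (SE) of 0.22 and an adjusted p of 0.172 by edgeR, and with a 95% interval from -1.18 to -0.26 before any adjustment for the number of genes. It lay between -0.97 and -0.48 under all alternatives and passed the threshold under none.

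Cckbr (chromosome 7, from 105425731 to 105470898), the receptor that NTZ blocks, was a transcript of low level, between 2.70 and 9.21 CPM in WT/PEG and between 1.98 and 6.34 CPM in WT/NTZ. Its log2 fold change was -0.38 (SE 0.22, edgeR adjusted p = 0.4), and the ranges overlapped over most of their width. Slc18a2, the transporter that loads histamine into vesicles, had a median of 33.6 CPM in WT/PEG and 27.4 CPM in WT/NTZ, with 8 of 9 WT/NTZ libraries below the WT/PEG median. The granule protein genes Chga and Chgb differed by -0.28 and -0.30 on the log2 scale, the vesicle gene Rab3c by -0.41 and the prohormone convertase Pcsk1 by -0.23. Their adjusted p-values from edgeR's test were 0.326, 0.259, 0.222 and 0.439. Chga, the general neuroendocrine marker chromogranin A, was 338.6 to 704.3 CPM in WT/PEG and 260.5 to 488.5 CPM in WT/NTZ, and 5 of 9 WT/NTZ libraries were below the WT/PEG median. Pappa2, a protease of insulin-like growth factor binding proteins, is on none of the lists and was named after its values were seen. It was at 3.76 to 15.7 CPM in WT/PEG and 2.14 to 5.86 CPM in WT/NTZ. All 9 WT/NTZ libraries were below the WT/PEG median of Pappa2, which differed by -0.95 on the log2 scale (SE 0.24, edgeR adjusted p = 0.133). With the squamous gene list described below as a covariate the median of the 21 genes was -0.11 and 0 of them had an unadjusted p under 0.05, where the fit without the covariate had 4.

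The other hormones of the corpus showed no common direction. Sst, the somatostatin of D cells, was 270.3 to 547.6 CPM in WT/PEG and 288.7 to 513.6 CPM in WT/NTZ, a log2 fold change of 0.14 with a 95% interval from -0.13 to 0.42. Ghrl, the ghrelin of X/A-like cells, was 2056 to 3119 CPM in WT/PEG and 1736 to 2979 CPM in WT/NTZ. It differed by 0.02 on the log2 scale, with an interval from -0.18 to 0.21. The interval of Ghrl is the narrowest among the endocrine genes named here. Tph1, the enzyme that starts serotonin synthesis, was at 0.591 to 1.52 CPM in WT/PEG and 0.89 to 2.79 CPM in WT/NTZ, and 5 of 9 WT/NTZ libraries were above every WT/PEG library. Its log2 fold change was 0.67 (edgeR adjusted p = 0.21).

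**Figure D2:**
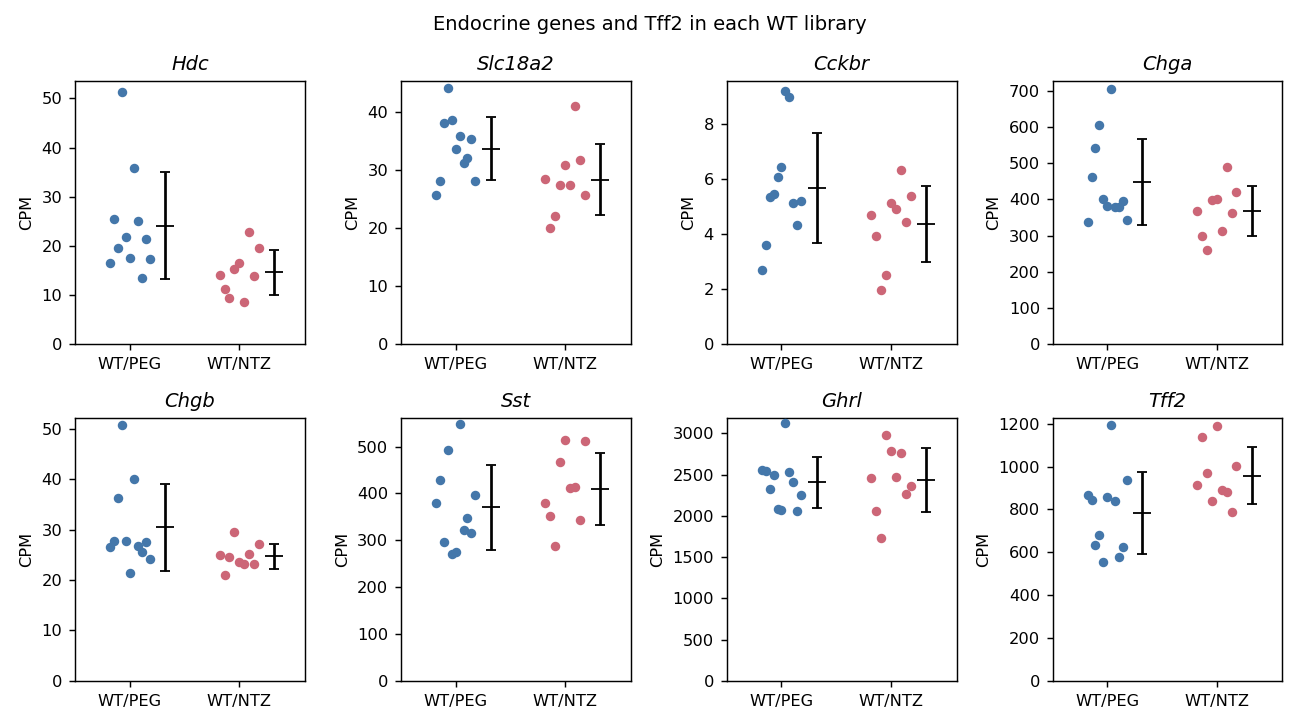
CPM of 8 genes in each of the 11 WT/PEG (blue) and 9 WT/NTZ (red) libraries, with the mean and SD beside the points. The 2 highest WT/PEG libraries of Hdc, at 51.4 and 35.8 CPM, lie above all 9 WT/NTZ libraries, and the groups overlap in each of the 8 panels.

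The genes of parietal cells, which secrete acid, were mostly a little lower in WT/NTZ, and none passed the test. Of 26 genes tested, 21 had a log2 fold change below 0 (80.8%, against 48.3% of all genes), with a median of -0.13. The other 5 were above 0, by up to 0.42. At an unadjusted p under 0.05, 5 were lower and 0 higher, where 6.9% of all genes were lower. With the squamous gene list described below as a covariate the median was -0.02 and 2 had an unadjusted p under 0.05. DESeq2 called 1 of the 26 lower (0.0797% of all genes). In the animals numbered 100 or above edgeR called 4 lower (2.03% of all genes), and the median was -0.34. Atp4a, the catalytic subunit of the H+/K+ATPase, was 5657 to 8411 CPM in WT/PEG and 3587 to 9191 CPM in WT/NTZ, so that the WT/NTZ libraries spread to both sides of the WT/PEG range. Its log2 fold change was -0.24 (SE 0.12, edgeR adjusted p = 0.345). Atp4b was 2637 to 5189 CPM in WT/PEG and 2045 to 4694 CPM in WT/NTZ, and differed by -0.09 on the log2 scale with a 95% interval from -0.35 to 0.16. The lowest Atp4b value, 2045 CPM, was that of the WT/NTZ library WT_118. Kcne2, a potassium channel subunit needed for acid secretion, and Slc26a7, an anion exchanger, differed by -0.12 and -0.23. The genes of the list with the smallest p were Ppargc1a, a coactivator of mitochondrial biogenesis, at -0.56 on the log2 scale with all 9 WT/NTZ libraries below the WT/PEG median, and Esrrg, a nuclear receptor of parietal cells, with -0.34 and 5 WT/NTZ libraries below every WT/PEG library. Their adjusted p-values from edgeR's test were 0.143 and 0.181. Slc12a2, a sodium, potassium and chloride cotransporter, Kcnj15, a potassium channel, and Ezr, the ezrin of the apical membrane, differed by -0.27, -0.25 and -0.14.

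Chief cell and surface pit cell genes lay around 0. Of 15 chief cell genes tested, 9 were above 0 and 6 below, with a median of 0.02, and of 16 surface pit cell genes 7 were above and 9 below, with a median of -0.01. None of these 31 genes had an unadjusted p under 0.05. Pgc, the pepsinogen C precursor, had a log2 fold change of -0.13, Gif, intrinsic factor, of -0.19, and Bhlha15, a transcription factor of mature chief cells, of -0.18. These named genes are among the 6 below 0, and the chief cell list ran from -0.19 to 0.79. The 95% intervals of Pgc and Gif reached down to -0.48 and -0.44. The pit cell secretory genes Gkn1 and Gkn2 differed by -0.04 each, Tff1 by 0.07, and the mucin Muc5ac by -0.15 with an interval from -0.63 to 0.32. For Gkn1 and Gkn2 the WT/NTZ libraries spread wider than the WT/PEG libraries, with 2 above every WT/PEG library and 3 (Gkn1) or 2 (Gkn2) below.

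The list of mucous neck cells and spasmolytic polypeptide-expressing metaplasia (SPEM), a mucous cell lineage that follows loss of parietal cells, held 21 genes tested. Their median log2 fold change was 0.47, and 10 were higher at an unadjusted p under 0.05, against 8.43% of all genes. None passed the adjusted test. With the squamous list as a covariate the median was 0.13 with 2 genes at an unadjusted p under 0.05, and without WT_86 and WT_118 (all other libraries in one fit) it was 0.23 with 3. In the animals numbered 100 or above it was 0.80, and 7 of 23 genes were called higher (4.16% of all genes). With all 44 libraries in one fit 1 of 26 was, Gpa33 (1.02% of all genes). Tff2, the spasmolytic polypeptide, was 556.9 to 1196 CPM in WT/PEG and 790.2 to 1190 CPM in WT/NTZ, a log2 fold change of 0.29 (SE 0.12, edgeR adjusted p = 0.265). Muc6, the neck cell mucin, differed by -0.09 and Clu, clusterin, by 0.06, with 95% intervals from -0.69 to 0.51 and from -0.12 to 0.25. Cd44, a hyaluronan receptor, differed by 0.47 (SE 0.23, edgeR adjusted p = 0.324). The largest log2 fold changes of the list were those of Gpa33 (2.14), Muc4 (1.52), Muc13 (1.43) and Pigr (1.38), genes that intestinal epithelium also makes. Muc13, a membrane mucin of low level here, was above the WT/PEG median in all 9 WT/NTZ libraries. Gpa33, an intestinal surface antigen, was 67.5 CPM in the WT/NTZ library WT_118 and 22.3 CPM in WT_117, and at most 8.15 CPM in each other WT library. Muc4, another membrane mucin, was 26.3 CPM in WT_118 and 15.3 CPM in WT_117, against at most 6.48 CPM in WT/PEG. The libraries WT_117 and WT_118 are the same 2 WT/NTZ libraries that held Gast, and 15 of the 21 genes had their highest WT value in one of them, as did 22.7% of all genes tested. Pigr, the receptor that carries immunoglobulin A across epithelium, was 228.1 CPM in WT_118, at most 33.6 CPM in the other 8 WT/NTZ libraries and at most 37.3 CPM in WT/PEG.

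**Figure D3:**
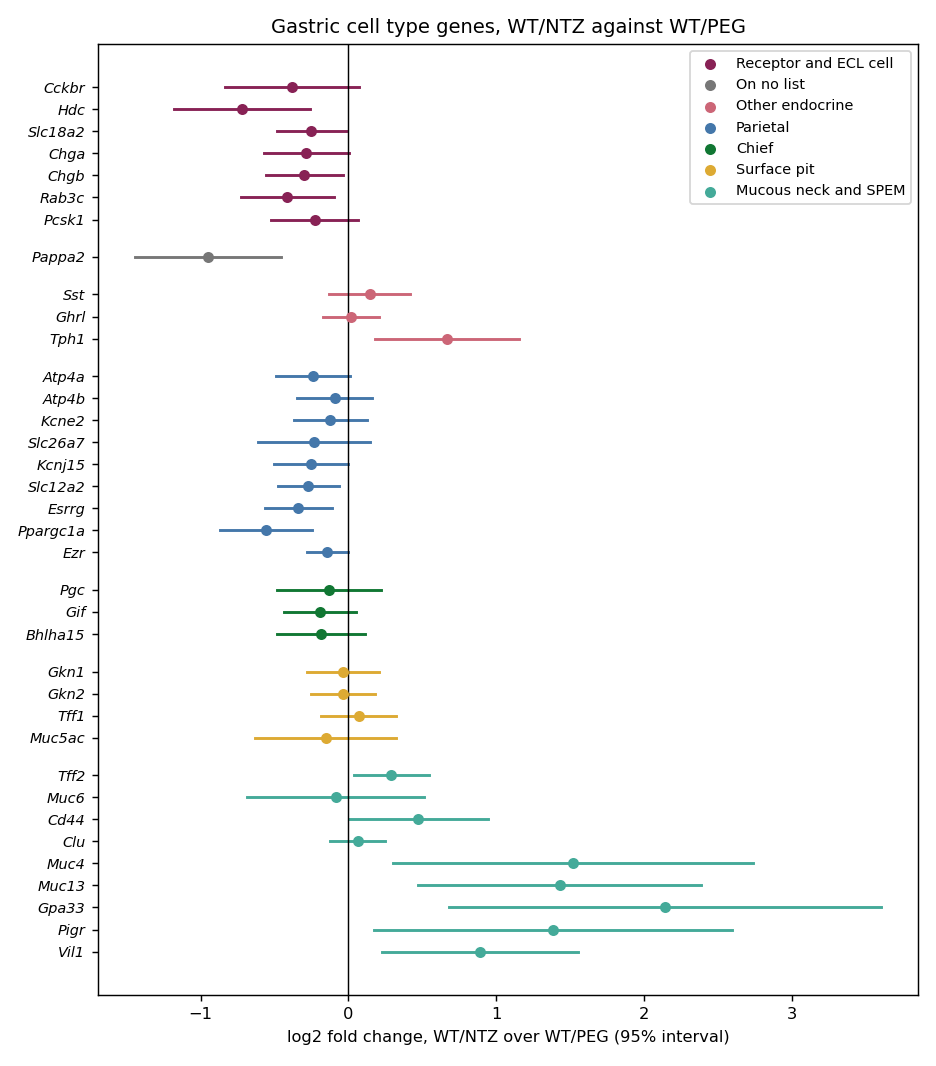
Log2 fold change of WT/NTZ over WT/PEG for genes of gastric cell types and for Pappa2. Bars give the 95% interval before adjustment for the number of genes. The chief cell genes drawn lie below 0, whereas 9 of the 15 chief cell genes tested were above 0. The receptor and ECL cell genes lie left of 0, Hdc farthest at -0.72, surface pit cell genes lie between -0.15 and 0.07, and intestinal genes of the SPEM list right of 0 with wide bars.

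Interferon-stimulated genes were many times higher in 2 of the 9 WT/NTZ libraries, WT_86 and WT_118, and not in the other 7. Interferons are secreted during viral infection and inflammation, and their receptors switch on a shared set of antiviral genes. Isg15, an interferon-induced ubiquitin-like protein, was 107.0 CPM in WT_86 and 63.4 CPM in WT_118, between 1.78 and 7.41 CPM in the other 7 WT/NTZ libraries and between 0.759 and 5.79 CPM in WT/PEG. Oas2, which senses double-stranded RNA, was 62.8 and 45.7 CPM in WT_86 and WT_118 against 0.547 to 3.29 CPM in WT/PEG. Irf7, the factor that amplifies type I interferon, was 116.5 and 96.6 CPM against 3.88 to 16.4 CPM. Zbp1, a sensor of Z-form nucleic acid, was 25.8 and 50.5 CPM against 0.234 to 1.85 CPM, so that the order of the 2 libraries is not the same for each gene. Apol9b was 35.6 and 15.3 CPM, against at most 0.835 CPM in WT/PEG, and was too low in most libraries to be tested in the fit of the 20 WT libraries. Its sequence is close to that of Apol9a, and reads may have been divided between them.

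The promoters of some of these genes carry the interferon-stimulated response element, a site bound by transcription factors of the interferon response. It was searched as 2 GAAA half-sites with any 2 bases between them, on both strands (TTTC on the other), in RefSeq promoter windows of 300 bases, from 250 before to 50 after the transcription start, on GRCm38.p6. Of 35 genes of the list with a window, 23 (65.7%) held it, against 1079 of all 27025 genes (3.99%). The windows of Isg15, Igtp and Apol9b are shown because these genes are among those highest in WT_86 and WT_118, and that of Ifi44 because it has no match in spite of a like pattern over libraries. Each is written 5′ to 3′ on the strand of its gene, with matches in capitals, and overlapping matches run together. Isg15 is at chr4:156200769-156201068 (minus strand), Igtp at chr11:58199306-58199605 (plus), Apol9b at chr15:77728822-77729121 (plus) and Ifi44 at chr3:151749861-151750160 (minus).
Isg15: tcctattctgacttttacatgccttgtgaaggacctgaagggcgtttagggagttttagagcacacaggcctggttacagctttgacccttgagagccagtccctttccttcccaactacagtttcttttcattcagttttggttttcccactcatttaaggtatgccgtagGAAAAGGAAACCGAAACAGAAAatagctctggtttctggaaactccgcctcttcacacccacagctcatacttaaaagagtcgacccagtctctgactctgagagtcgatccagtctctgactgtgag
Igtp: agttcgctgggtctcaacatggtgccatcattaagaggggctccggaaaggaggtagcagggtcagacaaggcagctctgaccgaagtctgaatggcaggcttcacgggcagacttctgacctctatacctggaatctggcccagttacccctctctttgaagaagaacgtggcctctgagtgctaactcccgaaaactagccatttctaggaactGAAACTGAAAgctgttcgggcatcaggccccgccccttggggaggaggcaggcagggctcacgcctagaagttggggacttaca
Apol9b: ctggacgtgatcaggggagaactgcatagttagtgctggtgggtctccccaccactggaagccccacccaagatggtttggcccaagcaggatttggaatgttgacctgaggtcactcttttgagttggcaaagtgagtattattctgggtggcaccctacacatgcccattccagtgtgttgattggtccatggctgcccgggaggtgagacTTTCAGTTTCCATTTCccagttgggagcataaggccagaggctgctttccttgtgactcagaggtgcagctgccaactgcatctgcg
Ifi44: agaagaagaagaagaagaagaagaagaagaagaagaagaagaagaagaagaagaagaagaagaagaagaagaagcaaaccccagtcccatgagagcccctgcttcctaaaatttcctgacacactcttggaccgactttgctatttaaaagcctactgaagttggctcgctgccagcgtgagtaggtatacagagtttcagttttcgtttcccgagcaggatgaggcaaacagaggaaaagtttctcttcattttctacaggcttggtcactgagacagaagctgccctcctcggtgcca

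Over the whole list the pattern was shared. Of 47 listed genes 43 were tested, 42 with a log2 fold change above 0 and a median of 1.71. At an unadjusted p under 0.05, 39 were higher, against 8.43% of all genes. For 38 of the 43 genes the 2 highest of the 20 WT libraries were WT_86 and WT_118, which was so for 2.84% of all genes tested. Against the WT/PEG median, 41 of 43 genes were more than 2-fold higher in WT_118 and 38 in WT_86, and between 0 and 11 in each of the other WT/NTZ libraries. Among WT/PEG libraries the count was 15 in WT_121 and 8 in WT_120. The same count was not made over all genes tested, so that these counts have no share to be set against. The summed level of the list was 2936 CPM in WT_118, 2380 CPM in WT_86, between 397.4 and 771.7 CPM in the other 7 WT/NTZ libraries, and between 421.0 and 878.3 CPM in WT/PEG. Igtp and Psmb8, which lie downstream of interferon gamma as well, were highest in WT_118, at 262.5 and 167.6 CPM. The log2 fold change of Isg15 was 3.06 (SE 0.71, edgeR adjusted p = 0.133), and 0.66 without libraries WT_86 and WT_118. DESeq2 called 6 of the 43 genes higher (0.471% of all genes), with a median of 0.80. With all 44 libraries in one fit, 29 of 45 genes of the list passed the threshold (1.03% of all genes), with a median of 1.69. Without WT_86 and WT_118 in that fit 0 of 45 passed, with a median of 0.30. Whether these 2 libraries differ from the other 7 through the treatment was not tested.

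**Figure D4:**
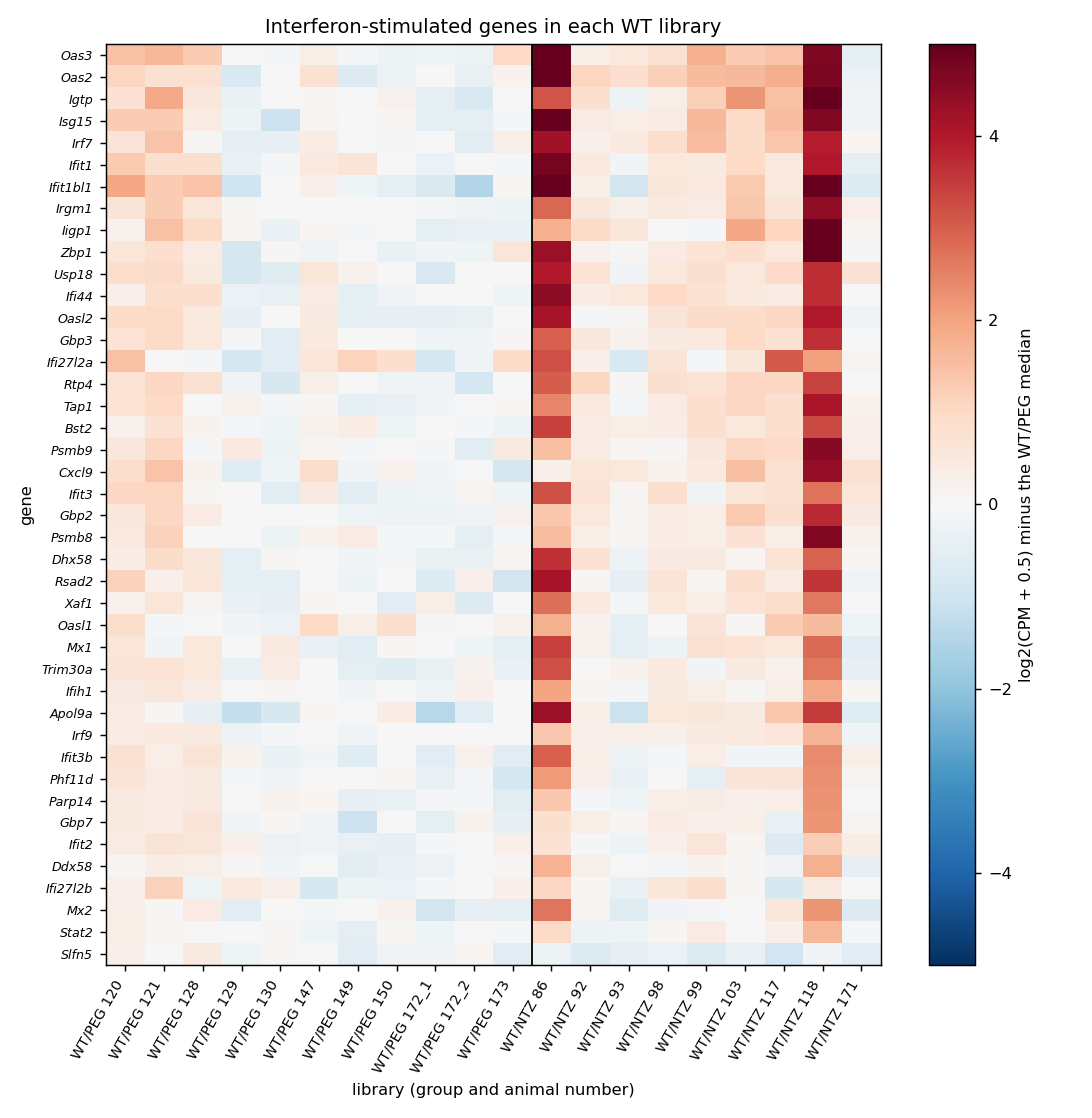
Rows are 42 of the 43 interferon-stimulated genes tested and columns the 20 WT libraries, WT/PEG left and WT/NTZ right of the black line. Colour gives log2(CPM + 0.5) minus the WT/PEG median of the gene, and the scale ends at 5 in each direction. The WT/NTZ columns WT_86 and WT_118 stand out over most rows, though not for Slfn5, and Cxcl9 is high in WT_118 but not in WT_86.

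Antigen presentation and leukocyte genes were by far highest in the library WT_118. All 9 tested genes of major histocompatibility complex (MHC) class II presentation had their highest WT value in WT_118, as did 13.4% of all genes tested. H2-Aa, which encodes a class II alpha chain, was 567.7 CPM in WT_118, 36.6 CPM in WT_86, and between 24.3 and 87.4 CPM in WT/PEG. The summed class II level was 3627 CPM in WT_118, between 196.2 and 354.9 CPM in the other WT/NTZ libraries and between 139.6 and 478.5 CPM in WT/PEG. The highest WT/PEG library, WT_121, had 7 of the 9 genes more than 2-fold above the WT/PEG median, a count not made over all genes tested. The lists of plasma and B cells, of T and NK cells and of macrophages were also highest in WT_118. Of 16 macrophage and myeloid genes tested 14 had their top value there. Cd79a, part of the B cell receptor, was 16.6 CPM in WT_118 and at most 3.32 CPM in each other WT library. The 2 interferon-high libraries were therefore not alike: WT_86 had Isg15, Ifit1, Ifi44 and Irf7 above WT_118 but Gbp2, Igtp and Cxcl9 below it, Cxcl9 lying inside the WT/PEG range, as did its class II genes.

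Genes of squamous epithelium were high in more of the WT/NTZ libraries. Squamous epithelium lines the forestomach of the mouse, which borders on the corpus at the limiting ridge, and is not part of the glandular mucosa. Krt13, a keratin of its upper layers, was 1627 CPM in the WT/NTZ library WT_117, 455.0 in WT_103, 347.2 in WT_92, 345.5 in WT_171, 323.0 in WT_118 and 116.6 in WT_98, and 15.5 CPM in WT_86, 0.38 in WT_93 and 0.34 in WT_99. In WT/PEG it was 183.5 CPM in WT_130, 93.3 in WT_172_2, 85.9 in WT_121 and 29.5 in WT_128, and at most 2.82 CPM in the other 7. So 5 of 9 WT/NTZ libraries were above every WT/PEG library, while 2 had next to none. The keratins of the basal layer Krt5 and Krt14, and Trp63, the transcription factor of squamous stem cells, were above every WT/PEG library in 4, 4 and 3 of the WT/NTZ libraries. Krt5 was at most 97.0 CPM in WT/NTZ and 46.4 CPM in WT/PEG. The summed level of the squamous list was 471.5 to 7998 CPM in WT/NTZ and 574.4 to 2045 CPM in WT/PEG, and the 5 libraries above the WT/PEG range, WT_117, WT_103, WT_171, WT_92 and WT_118, were those at the negative end of the first principal component.

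Of 31 squamous genes tested, 30 had a log2 fold change above 0 (96.8%, against 51.7% of all genes), with a median of 2.58. At an unadjusted p under 0.05, 25 were higher, against 8.43% of all genes. None passed the adjusted test in the 20 WT libraries. DESeq2 called 3 of the 31 higher (0.471% of all genes), and edgeR called 4 of 33 without WT_93 (0.568% of all genes). With all 44 libraries in one fit edgeR called 3 of 34 (1.02% of all genes). In the animals numbered 100 or above it called 22 of 35 (4.16% of all genes). For Krt13 the log2 fold change was 3.33 (SE 1.20, edgeR adjusted p = 0.213). Not every gene of the list is particular to squamous cells in these samples. Sfn and Ly6d had means of 170.8 and 396.9 CPM in KO/PEG (scaled over all 44 libraries) and of 12.9 and 14.3 CPM in WT/PEG, while Krt5 had 8.50 and 7.95 CPM. When the log2 of the summed list was added to the model as a covariate, the number of genes at an unadjusted p under 0.05 went from 2116 to 1035. The summed list was itself above every WT/PEG library in 5 of 9 WT/NTZ libraries. A fit with this covariate, here and elsewhere in the text, therefore cannot separate squamous content from treatment. Acta1, the actin of skeletal muscle, was 75.5, 29.8 and 24.5 CPM in the WT/NTZ libraries WT_117, WT_118 and WT_92 and at most 0.396 CPM in WT/PEG. The summed smooth muscle list was above every WT/PEG library in 6 of 9 WT/NTZ libraries, with medians of 7741 CPM in WT/NTZ and 6980 CPM in WT/PEG. The part of tissue sampled at the biopsy in these differences was not tested.

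**Figure D5:**
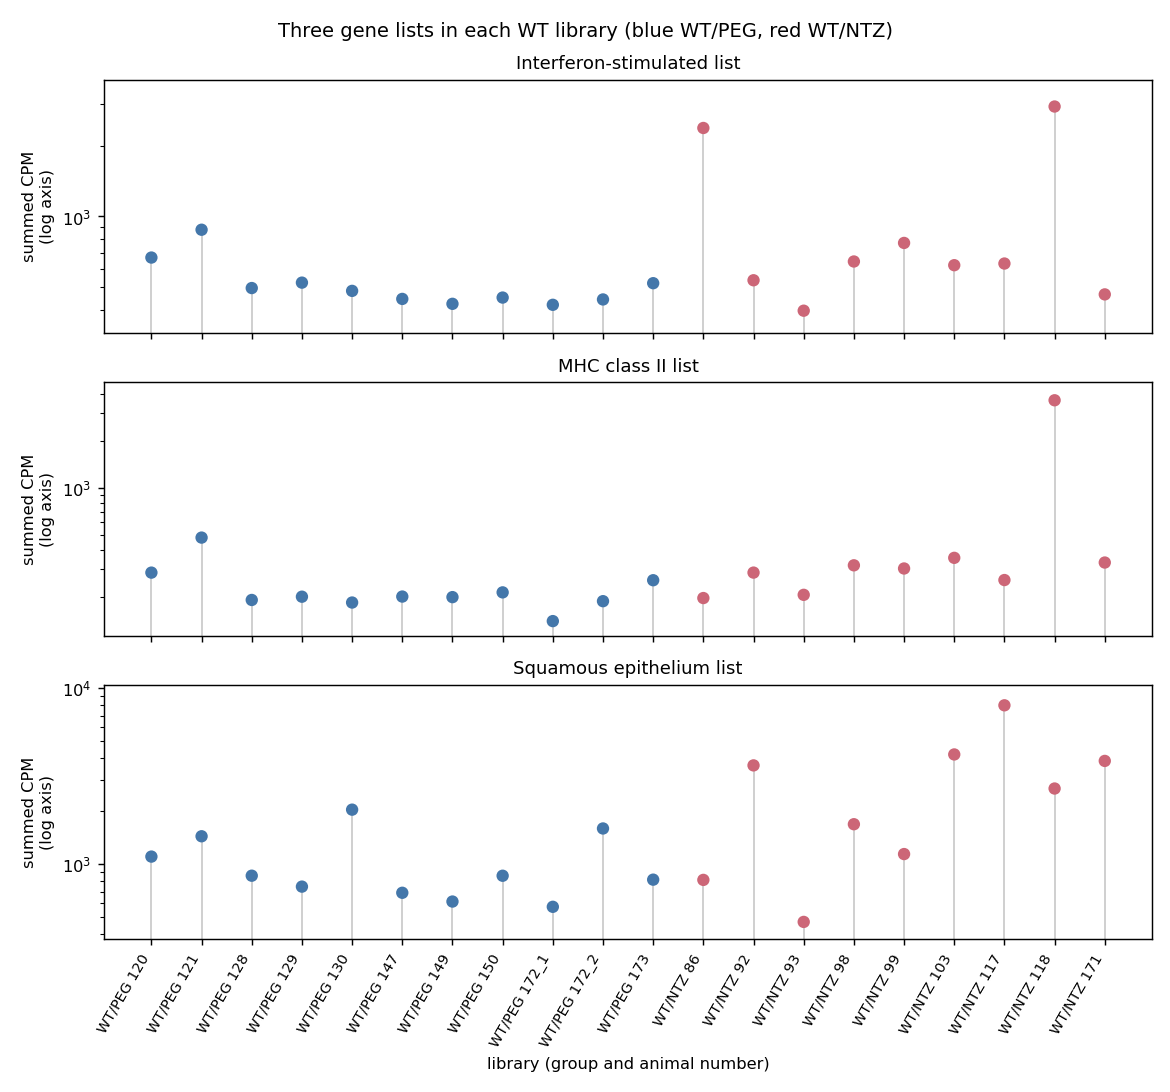
Summed CPM of 3 gene lists in each WT library, on log axes, with WT/PEG in blue and WT/NTZ in red. The interferon list is high in WT/NTZ WT_86 (2380 CPM) and WT_118 (2936 CPM), the MHC class II list in WT_118 (3627 CPM), and the squamous list in 5 WT/NTZ libraries, up to 7998 CPM in WT_117.

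Since no gene passed the threshold, the genes with the smallest p are named by their rank, and those discussed were picked after their values were seen. The 7 smallest p-values were those of Tent5b, Blnk, Cysrt1, Trex2, Emp2, Oas2 and Ihh, all higher in WT/NTZ. Trex2, a 3′ exonuclease of keratinocytes, is on the squamous list. Like Sfn and Ly6d, Trex2 had a higher mean in KO/PEG (5.72 CPM, scaled over all 44 libraries) than in WT/PEG (0.968 CPM). It was 14.2, 8.17, 7.07, 6.42 and 5.58 CPM in WT_117, WT_171, WT_103, WT_92 and WT_118, against 0.163 to 2.53 CPM in WT/PEG. With the squamous covariate, a sum that includes Trex2 itself, its log2 fold change was 0.66 instead of 2.48. Because Trex2 is part of that sum, this fall cannot show where its difference comes from. Tent5b, a poly(A) polymerase, was 2.93 to 13.2 CPM in WT/NTZ and 1.5 to 3.54 CPM in WT/PEG, with 8 of 9 WT/NTZ libraries above every WT/PEG library and a log2 fold change of 1.29, or 0.61 with the covariate. Cysrt1, a protein of the cornified epithelium, differed by 1.91.

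Smaller and more even differences were seen in Ihh, Emp2, Blnk and Gadd45a. Ihh (chromosome 1, from 74945315 to 74951672), the Hedgehog ligand of pit cells, was 38.9 to 47.7 CPM in WT/NTZ and 27.8 to 41.3 CPM in WT/PEG. All 9 WT/NTZ libraries were above the WT/PEG median of Ihh, and the ranges met only between 38.9 and 41.3 CPM. Its log2 fold change was 0.32 (SE 0.07, edgeR adjusted p = 0.133) and stayed between 0.25 and 0.48 under the alternatives, 0.35 with the squamous covariate. Emp2, a tetraspan membrane protein, was 39.3 to 57.6 CPM against 29.3 to 43.3 CPM, a log2 fold change of 0.38. Blnk, an adaptor of B cell receptor signalling, was 8.23 to 12.7 CPM against 4.73 to 9.08 CPM, a log2 fold change of 0.59 (SE 0.12, edgeR adjusted p = 0.133). Its level was 11.1 CPM in WT_118, in which Cd79a was 16.6 CPM, and 12.7 CPM in WT_92, in which Cd79a was 1.51 CPM. Among WT/PEG libraries WT_121 had the highest level of both Blnk (9.08 CPM) and Cd79a (3.32 CPM). The part of B cell content in the difference of Blnk was not tested. Gadd45a, which is induced by DNA damage and stress, was 4.07 to 6.52 CPM against 2.56 to 4.81 CPM. DESeq2 called Tent5b, Blnk, Emp2 and Ihh, with adjusted p of 0.000992, 0.00347, 0.008 and 0.00813. Cryab and Hspb1, small heat shock proteins, had log2 fold changes of 0.74 and 1.11.

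Among genes with lower levels, Ubxn2b, a cofactor of the p97 ATPase, had the smallest p. It was 7.01 to 10.8 CPM in WT/NTZ and 10.5 to 14.4 CPM in WT/PEG, with 8 of 9 WT/NTZ libraries below every WT/PEG library and a log2 fold change of -0.38 (SE 0.08, edgeR adjusted p = 0.133). Vkorc1l1, a vitamin K epoxide reductase, was 35.8 to 44.7 CPM against 41.7 to 49.2 CPM and had a log2 fold change of -0.19. It was the single gene called lower by edgeR with all 44 libraries in one fit (adjusted p = 0.0409). Plce1, a phospholipase C, and Vps13a, a lipid transfer protein, differed by -0.24 and -0.46, with all 9 WT/NTZ libraries below the WT/PEG median of each.

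Transcript length moved with these small differences. The 953 genes lower at an unadjusted p under 0.05 had a median transcript length of 5138 bases, the 1163 higher genes 1681 bases, and all genes tested 2763 bases. A slope on log2 length was taken for each library from its log2 transcript levels less each transcript's mean over all 44 libraries. It is therefore relative to the series, and comes from the same levels that it later adjusts. In WT/NTZ it was 0.0602 to 0.22 and in WT/PEG 0.0798 to 0.291. The medians were 0.169 and 0.211 (exact permutation test, two-sided, p = 0.0298, adjusted p = 0.149 over 5 properties of the libraries). With this slope as a covariate 688 genes had an unadjusted p under 0.05, instead of 2116, and 0 passed the adjusted test. Hdc was -0.77 in that fit.

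In KO mice, in which the mucosa makes no acid and gastrin is high, some of the ECL cell genes differed by more. Over all genes, 450 (3.02%) were higher and 401 (2.69%) lower in KO/NTZ than in KO/PEG, from edgeR's test with all 44 libraries in one fit. Of the 21 ECL cell and granule genes tested in WT, 7 were lower and 2 higher. The level of Hdc averaged 69.6 ± 25.6 CPM over the KO/PEG libraries (SD, n = 13) and 17.7 ± 6.12 CPM over KO/NTZ (SD, n = 11), a log2 fold change of -1.97 (edgeR adjusted p = 1.05e-07). In WT mice the means were 24.1 ± 10.8 CPM under PEG (SD, n = 11) and 14.6 ± 4.64 CPM under NTZ (SD, n = 9), on the scale of the WT libraries alone, so that KO and WT means are not on exactly one scale. Set against the WT effect, the KO effect of NTZ differed by -1.23 for Hdc, -0.91 for Chga, -1.20 for Chgb and -1.40 for Pcsk1 on the log2 scale, with adjusted p of 0.0389, 0.0282, 0.0106 and 0.0258 from edgeR's test of the interaction. These were the 4 of the 21 genes with an interaction below 0 past the threshold, and 1 was above it, Pcsk1n, a granule protein, at 1.58 (edgeR adjusted p = 0.0389). For Slc18a2 the difference was -0.51 (adjusted p = 0.558) and for Rab3c 0.15 (adjusted p = 0.861). For Cckbr it was -0.58 (adjusted p = 0.498) although the fall in KO mice alone passed the threshold, with a log2 fold change of -0.98 (edgeR adjusted p = 0.00241). Over all genes 36 (0.241%) had an interaction above 0 and 108 (0.724%) below. As no gene was called in WT, none could be followed into the KO mice as a called gene. The interferon genes had a median of -0.23 in KO mice, with 1 of 43 higher and 1 lower. Interaction values for Isg15 (-3.01), Oas2 (-3.50), Irf7 (-2.37) and Zbp1 (-3.70), with adjusted p of 0.0248, 0.00823, 0.0136 and 0.0106 from edgeR's test, were computed with the WT/NTZ libraries WT_86 and WT_118 in the fit, and were not computed without them.

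At the level of single transcripts the result was the same count: 0 of 25434 transcripts (0%) passed edgeR's test, with 2229 at an unadjusted p under 0.05, and DESeq2 called 30. With sleuth the paper reports a transcript each of Apol9b, Tpm1 and Trex2 as changed between these groups, and states each as lower in WT/NTZ. Here the same transcripts of Tpm1 and Trex2 were higher in WT/NTZ, by 2.30 and 2.43 on the log2 scale. Their adjusted p-values from edgeR's test were 0.488 and 0.451. The reason for the opposite sign was not tested. Tpm1, a tropomyosin of the cytoskeleton and of muscle, is one of the genes of the rule. Its sum was 643.0 to 943.6 CPM in WT/PEG and 636.9 to 968.2 CPM in WT/NTZ, a log2 fold change of 0.12 with a 95% interval from -0.05 to 0.30. Of 15 Tpm1 transcripts tested, the log2 fold changes ran from -1.08 to 2.30, and the smallest unadjusted p from edgeR's test was 0.00451, with an adjusted p of 0.48. Reads of 75 bases are divided among such transcripts by an estimate, so that these values are less certain than their sum.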

How the data were processed

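Estimated counts per transcript were deposited for all 44 libraries in one table. The authors made them with kallisto 0.42.4 on the mouse genome build GRCm38 from single reads of a stranded poly(A) library, and tested them with sleuth. Here they were summed per gene, rounded to whole numbers and filtered (edgeR filterByExpr, minimum count 10, minimum total 15). Of 94080 transcripts, 1708 were not paired with a gene and were left out of the gene sums. The 20 WT libraries were fitted alone with edgeR 4.0.16 (TMM, quasi-likelihood test, Benjamini-Hochberg threshold 0.05) in R 4.3.3, and all 44 for the KO comparison and the interaction. DESeq2 1.42.0, limma-trend 3.58.1, other scalings, filters and covariates, and leaving out each library were alternatives, and the test was checked on simulated data. CPM used TMM-scaled library sizes. The lists and members were chosen with earlier results of these data known. The rule for named genes asked for a fixed set (Atp4b, Atp4a, Cckbr, Hdc, Chga, Sst, Gast, Ghrl, Tff2, Clu, Apol9b, Tpm1 and Trex2) and for genes past the threshold. Apol9b, Tpm1 and Trex2 were put in the set because the paper reports them as changed in this same comparison. Every other gene named was chosen after its values were seen. One gene of the interferon list is not reported here by itself. Promoter windows came from RefSeq on GRCm38.p6.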

Additional observations from a re-analysis of the deposited data

Results flagged for a closer look

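Within the 9 WT/NTZ libraries 9 of 28 measures had one library far from the others (gap over range above 0.493). Chance flags about 1 in 20 groups when measures are independent, which these are not, since 5 of the 9 were WT_118 and 3 were WT_117. Library WT_118 was highest for the summed level of the mucous neck and SPEM list, at 4232 CPM with the next library at 3162. It was also highest for MHC class II (3627 CPM, next 354.9), plasma and B cells (2632 CPM, next 527.0), T and NK cells (56.6 CPM, next 11.8) and macrophages (538.8 CPM, next 231.9). Library WT_117 was highest for squamous epithelium (7998 CPM, next 4208), skeletal muscle (291.5 CPM, next 141.2) and adipocytes (1621 CPM, next 1095). Library WT_86 was highest for Apol9b, at 35.6 CPM with WT_118 next at 15.3 CPM.

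For 4 of 12 genes of the rule, edgeR's test of the interaction separated the effect of NTZ in the genotypes. The difference, KO minus WT on the log2 scale, was -1.23 for Hdc (adjusted p = 0.0389), -0.91 for Chga (adjusted p = 0.0282), -3.57 for Apol9b (adjusted p = 0.0248) and -2.33 for Trex2 (adjusted p = 0.019). For Hdc and Chga the larger effect was in KO mice. For Apol9b and Trex2 it was in WT mice, where Apol9b was highest in the libraries WT_86 and WT_118 and Trex2 in the libraries rich in squamous genes. Both are in the rule because the paper reports them as changed between the WT groups of these same data. Their choice therefore leaned on a WT difference, and the interaction was not computed without WT_86 and WT_118.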

How the results depend on the processing

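The count of 0 genes stayed 0 with DESeq2's size factors, without a filter, with limma-trend, with the WT_172 pair summed and with the length slope or the squamous list as a covariate. It was 153 with all 44 libraries in one fit, 75 in that fit without WT_86 and WT_118 (a choice made after seeing the data, as are those on the squamous list and Gast), 76 with DESeq2, 888 for animals numbered 100 or above and 1 for these with the squamous covariate. Leaving out single libraries gave 0 to 81 genes, with 81 without WT/NTZ WT_93. Genes at an unadjusted p under 0.05 were 1147, 678, 1331 (without WT_86 and WT_118, WT alone), 3705 (numbered 100 or above), 688 (length slope), 1035 (squamous covariate) and 1008 (without the 3 libraries with Gast), and 1495 to 2964 over single libraries. Transcripts past the threshold were 60 with all 44 libraries, 30 with DESeq2 and 112 for animals numbered 100 or above. The interaction count was 76 without the libraries numbered 110 and with the WT_172 pair summed. The cause of these shifts was not tested.

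Signs turned for these log2 fold changes, and the squamous covariate is itself a sum that holds the keratins and Trp63. With it Atp4b was 0.077, Muc6 0.0062, Cd44 -0.083, Krt5 -0.21, Krt14 -0.50, Krt13 -0.35 and Trp63 -0.72. With that covariate in animals numbered 100 or above Chgb was 0.077, Krt5 -2.35, Krt14 -1.84, Krt13 -1.55 and Trp63 -2.39. In those animals without it Sst was -0.015 and Ghrl -0.080. With the length slope Ghrl was -0.019, Clu -0.028, Slc26a7 0.086, Tff1 -0.12, Muc5ac 0.071 and Muc6 0.32. With all 44 libraries Ghrl was -0.010. Without WT_86 and WT_118 Gkn1 was 0.064 and Gkn2 0.038, or 0.048 and 0.022 with the KO libraries in the fit. Without the 3 libraries with Gast Tff1 was -0.014 and Muc6 0.092. Over single libraries Ghrl ran from -0.032 to 0.066, Gkn1 from -0.11 to 0.033, Gkn2 from -0.10 to 0.015, Tff1 from -0.033 to 0.11 and Muc6 from -0.33 to 0.0035. No paired analysis was possible because the WT groups share no animal number.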

Other observations

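Several lists had medians well above 0. The median log2 fold change was 1.64 for MHC class II presentation (9 of 9 genes higher at an unadjusted p under 0.05), 0.91 for plasma and B cells (3 of 9), 0.66 for skeletal muscle (2 of 4), 0.52 for macrophages (10 of 16), 0.52 for small intestine (4 of 9), 0.26 for smooth muscle (8 of 18), 0.25 for mast and tuft cells (4 of 13), 0.25 for T and NK cells (0 of 2) and 0.22 for adipocytes (0 of 14). None of these genes passed the adjusted test in the fit of the WT libraries alone. The class II median was 0.25 with DESeq2, with 0 of 9 genes at an unadjusted p under 0.05. DESeq2's default handling of outlying counts was left on, and its part in this value was not tested. With all 44 libraries in one fit it was 1.58, and without WT_86 and WT_118 in that fit 0.31, with 0 of 11. The same step took plasma and B cells from 0.97 to 0.08, macrophages from 0.48 to 0.25 and small intestine from 0.49 to 0.17. Skeletal muscle went only from 1.45 to 1.39.

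The next lists had medians nearer 0. Of 19 circadian clock genes tested, 8 were higher and 2 lower in WT/NTZ at an unadjusted p under 0.05, with a median log2 fold change of 0.16, and none passed the adjusted test. Of 24 antioxidant genes that respond to the factor Nrf2, 6 were higher and 0 lower, with a median of 0.16. Of 35 cell cycle genes 1 was higher and 4 lower, with a median of -0.05, and 20 of them had their highest WT value in library WT_118. Of 21 genes reported elsewhere to respond to gastrin, 2 were higher and 0 lower, with a median of 0.03. All 22 cholesterol synthesis genes and all 13 mitochondrially encoded genes had an unadjusted p of 0.05 or more, with medians of 0.08 and 0.02. Among all genes tested 8.43% were higher and 6.9% lower by the same measure.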
